A study of Mus musculus with 9 samples.

Results

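The RNA exosome is the complex that shortens and destroys RNA from its free 3′ end, and its subunits were followed here across N1E-115 mouse neuroblastoma cells with altered Tcof1. The genes were the cap subunits Exosc1, Exosc2 and Exosc3, the ring subunits Exosc4, Exosc5, Exosc7, Exosc8 and Exosc9, and the ribonucleases Exosc10 and Dis3. Subunits outside this list were not examined. Every probe set annotated with exactly 1 of these symbols was taken, which gave 15 of 22626 non-control probe sets for 9 of the 10 genes. Exosc3 matched 0 probe sets and is not analysed here. Exosc10 had 4 probe sets, Exosc4 had 3, Exosc1 had 2, and the other 6 genes had 1 each.

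Total RNA was measured on 9 one-colour arrays, 3 from cells that overexpress mouse Tcof1, 3 from Tcof1 knockdown cells and 3 from wildtype cells, lettered A, B and C in each group. All 3 groups are the same neuroblastoma line. The sources used here give neither the means by which Tcof1 was altered nor whether the letters stand for separate cultures or clones. Each p-value thus reflects only the scatter among these arrays, and that scatter may be technical.

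In the exosome, RNase PH-like proteins form a ring that in mammals has lost its own catalytic activity, and cap proteins with an S1 fold sit on top and guide RNA into the channel. Dis3 and Exosc10 cut the RNA, with Exosc10 concentrated in the nucleolus. There the complex trims the 3′ end of the 5.8S ribosomal RNA precursor and removes spacer fragments. Treacle, the product of Tcof1, acts in the same compartment, in transcription and processing of ribosomal RNA, and the design asks how transcripts respond when its gene is raised or lowered.

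Array medians lay between 164.1 and 185.95 intensity units, and log2 values correlated at 0.972 to 0.978 within groups and 0.956 to 0.978 between groups. Of 18 measured neuroblastoma and sympathetic neuron markers, 15 were above the array median on all 9 arrays, and Ddc, a catecholamine enzyme gene, was below it on all 9. Their summed intensity was 52334 to 56778 in overexpressing, 64006 to 69555 in knockdown and 61707 to 65953 in wildtype arrays. Of 9 fibroblast and matrix markers, 0 were above the median on all arrays, with sums of 505.9 to 633.2, 755.5 to 845 and 569.4 to 791 in overexpressing, knockdown and wildtype arrays. Schwann cell and glia markers had 3 of 7 above it, and their sums overlapped between all groups (8109.5 to 9955.5 in overexpressing, 8980.5 to 9119.8 in knockdown, 8664.5 to 11092.5 in wildtype arrays). Blood and immune markers had 1 of 8 above it, Cd74, and summed to 916.6 to 985.9, 1386.5 to 1495.9 and 1521.8 to 1614.4 in overexpressing, knockdown and wildtype arrays. The part of these shifts in the results below was not tested. The 3′ to 5′ ratio of the Gapdh control probe sets, a measure of RNA integrity, was 0.733 to 0.813 in overexpressing, 0.763 to 0.812 in knockdown and 0.747 to 0.794 in wildtype arrays. For the Actb control probe sets it was 0.9876 to 1.023 in overexpressing, 0.9106 to 0.9885 in knockdown and 0.9124 to 1.025 in wildtype arrays.

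Tcof1 was higher in the overexpressing cells on 1 of its 3 probe sets, and 0 of the 3 passed in knockdown over wildtype cells. The probe set 1423600_a_at read 385.5, 232.4 and 263.6 in overexpressing arrays A, B and C, 134.8, 112.1 and 133 in knockdown arrays and 143.1, 156.3 and 149.8 in wildtype arrays. The overexpressing arrays were above all others, and the knockdown arrays were below wildtype without overlap. Its log2 fold change was 0.87 ± 0.21 (SE) in overexpressing over wildtype cells (adjusted p = 0.0241, limma) and -0.22 ± 0.21 in knockdown over wildtype cells (adjusted p = 0.744). The call in overexpressing cells was lost without overexpressing array A (adjusted p = 0.0973) or C (adjusted p = 0.0511), and without wildtype array A (adjusted p = 0.0728) or B (adjusted p = 0.0688). In overexpressing over knockdown cells the value was 1.09 ± 0.21 (adjusted p = 0.0116), and the call was lost without overexpressing array A (0.89, adjusted p = 0.0508).

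Tcof1 1423601_s_at read 229.5, 276.6 and 284 in overexpressing arrays, 111.3, 115 and 137.2 in knockdown arrays and 163.3, 131.8 and 204.3 in wildtype arrays. Tcof1 1424643_at read 274.2, 268.6 and 292.8 in overexpressing arrays, 219.8, 228.9 and 204.9 in knockdown arrays and 167.8, 232.6 and 232.2 in wildtype arrays. On both, the overexpressing arrays were above all others, and knockdown and wildtype arrays overlapped. The values in overexpressing over wildtype cells were 0.63 ± 0.20 (adjusted p = 0.0786) for 1423601_s_at and 0.39 ± 0.17 (adjusted p = 0.187) for 1424643_at, and 1423601_s_at passed without wildtype array C (adjusted p = 0.047), above the 40th percentile of brightness (adjusted p = 0.0361) and with array weights (adjusted p = 0.0402). In overexpressing over knockdown cells Tcof1 rose on 1423601_s_at, by 1.03 ± 0.20 (adjusted p = 0.0137), a call that was lost without overexpressing array B (adjusted p = 0.05). There 1424643_at was at 0.33 ± 0.17 (adjusted p = 0.267). Neither probe set passed in knockdown over wildtype cells, at -0.40 ± 0.20 (adjusted p = 0.51) and 0.057 ± 0.17 (adjusted p = 0.934). The knockdown label is thus not checked by these probe sets.

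In overexpressing over wildtype cells, 3 of the 15 exosome probe sets rose and 0 fell. They were Exosc2 of the cap, at 1.89-fold, Dis3, at 1.39-fold, and Exosc7 of the ring, at 1.34-fold. The share of 20% stands beside 4.52% of all probe sets that were called higher and 9.59% called in either direction. Shares over all probe sets, here and below, include dim ones. Among the exosome probe sets, only Exosc8 and Exosc10 1437294_at were dimmer than the median probe set, at percentiles 31.4 and 45.9 of brightness. Brightness was not matched in these comparisons, so the differences in shares are a description. Of the 15, 12 had a log2 fold change above 0, or 80%, beside 47.9% of all probe sets. The median of the 15 was 0.31 on the log2 scale, against -0.016 over all probe sets. The 3 calls became 1, Exosc2, without overexpressing array B or wildtype array B. Exosc7 and Dis3 were also both lost without overexpressing array C or wildtype array A. Other probe sets passed there: Exosc4 1424685_at, which was lower, without overexpressing array C, and Exosc5, which was higher, without wildtype array A. The median was 0.15 without overexpressing array C and 0.21 without wildtype array A. The groups did not overlap for 7 of the 15, or 46.7%, beside 27.8% of all probe sets. Exosc4, on its brightest probe set, lay below wildtype without passing.

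**Figure D1:**
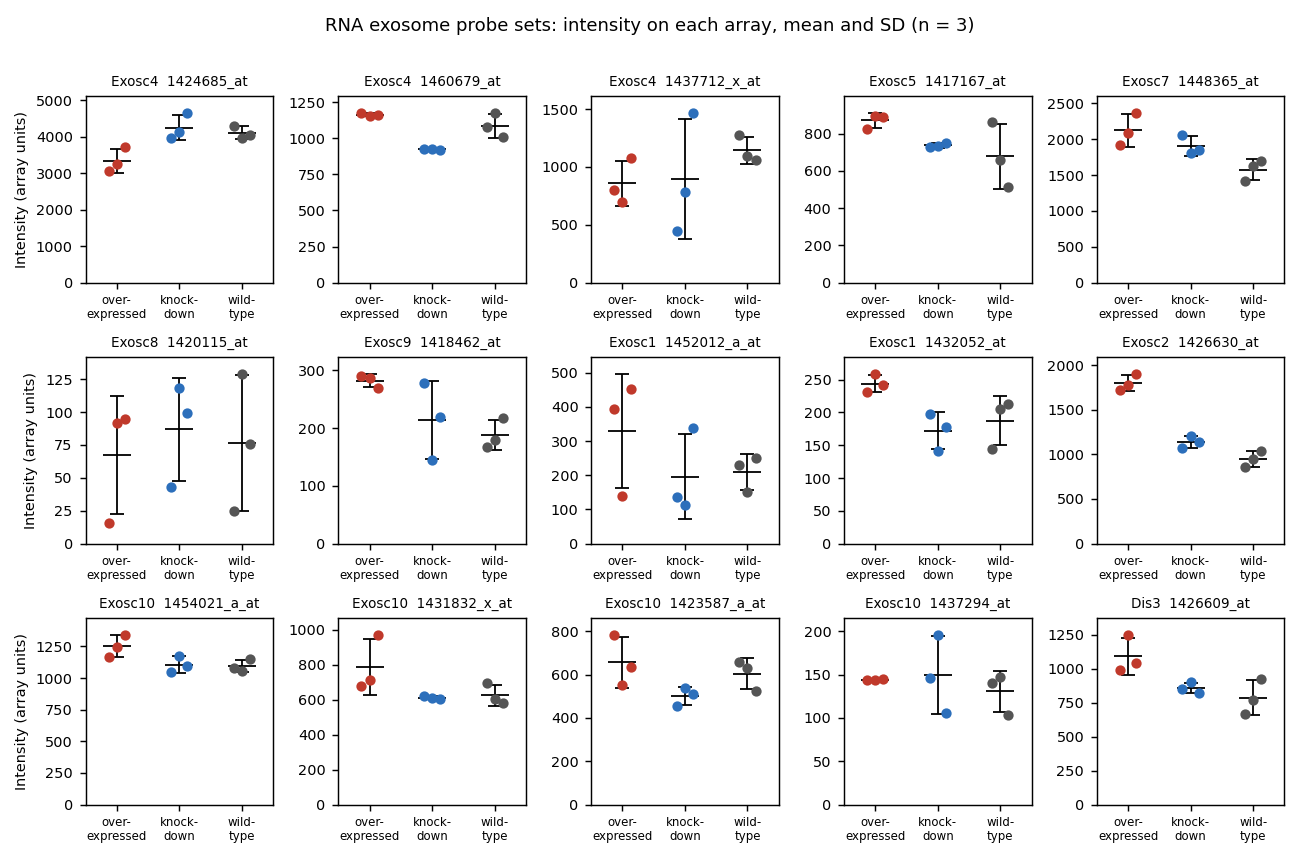
Intensity (vertical axes, array units, starting at 0) of each of the 15 exosome probe sets on the 9 arrays, with overexpressing, knockdown and wildtype arrays from left to right. Points are arrays A, B and C, and bars give the mean and SD (n = 3). Exosc2 read 1725.8 to 1898.6 in overexpressing arrays, against 854.4 to 1036.1 in wildtype arrays, and Exosc4 1424685_at 3057.3 to 3709.5 against 3964 to 4306.3.

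Exosc2, the cap subunit known in yeast as Rrp4, rose most among the called subunits. It read 1725.8, 1773.3 and 1898.6 in overexpressing arrays A, B and C, 1076.9, 1211.4 and 1133.9 in knockdown arrays, and 854.4, 946.9 and 1036.1 in wildtype arrays. The overexpressing arrays were above all others, and the knockdown arrays lay between them and wildtype without overlap. Its log2 fold change in overexpressing over wildtype cells was 0.92 ± 0.10 (adjusted p = 0.000523), which ranked 57 of 22626 by p. The call held in all 19 alternative fits, including each that left out 1 array, with values from 0.85 to 0.99.

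Exosc1, the cap subunit known in yeast as Csl4, did not pass on either probe set. On 1432052_at it read 231.5, 258.2 and 241.9 in overexpressing arrays, against 144.1, 205 and 213.4 in wildtype arrays. The groups did not overlap, and the log2 fold change was 0.37 ± 0.20 (adjusted p = 0.308). On 1452012_a_at the overexpressing arrays spread from 138.5 to 452.7, so that the 95% interval of its log2 fold change ran from -0.52 to 1.49.

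Exosc7, a ring subunit, read 1912.8, 2092.5 and 2361.5 in overexpressing arrays, 2065.7, 1810.5 and 1852.1 in knockdown arrays and 1412, 1625 and 1690.9 in wildtype arrays. Both altered groups were above wildtype on every array and overlapped each other. Exosc7 rose by 0.42 ± 0.11 in overexpressing over wildtype cells (adjusted p = 0.0292). The call was lost without overexpressing array B (adjusted p = 0.078) or C (adjusted p = 0.102), and without wildtype array A (adjusted p = 0.0934) or B (adjusted p = 0.0758). It was also lost without the mean-variance trend (adjusted p = 0.104) and in a fit of the 6 arrays of those groups alone (adjusted p = 0.0555).

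The other ring subunits followed here did not pass in overexpressing over wildtype cells. Exosc9, a ring subunit also known as an autoantigen in polymyositis and scleroderma, read 290.3, 286.1 and 268.9 in overexpressing arrays, against 167.4, 179.7 and 216.7 in wildtype arrays. These groups did not overlap, with a log2 fold change of 0.55 ± 0.22 (adjusted p = 0.155, 95% interval 0.068 to 1.04). Exosc5 read 825.5, 896.1 and 887.7 in overexpressing arrays and 861.8, 657.5 and 515.1 in wildtype arrays. Its groups overlapped through wildtype array A, with a log2 fold change of 0.38 ± 0.15 (adjusted p = 0.163), and without that array the value was 0.57 (adjusted p = 0.0239). Exosc8 was dim, at 15.3 to 94.4 in overexpressing and 25 to 128.7 in wildtype arrays. Its 95% interval ran from -1.45 to 1.08, so a change of either sign was not detectable with it.

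The 3 probe sets of the ring subunit Exosc4 did not move alike. The brightest, 1424685_at, read 3057.3, 3249.6 and 3709.5 in overexpressing arrays, 3976.2, 4134.9 and 4641.6 in knockdown arrays and 4306.3, 3964 and 4041.5 in wildtype arrays. Each overexpressing array was below every other array. The log2 fold change was -0.30 ± 0.10 in overexpressing over wildtype cells (adjusted p = 0.0756) and -0.35 ± 0.10 in overexpressing over knockdown cells (adjusted p = 0.0509). Without overexpressing array C both passed, at -0.38 (adjusted p = 0.0485) over wildtype and -0.43 (adjusted p = 0.0396) over knockdown. The value over knockdown also passed without wildtype array A (adjusted p = 0.0463), above the 40th percentile of brightness (adjusted p = 0.0318), with quantile normalization (adjusted p = 0.0476) and with array weights (adjusted p = 0.0483).

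The second Exosc4 probe set, 1460679_at, read 1172.6, 1153.2 and 1164.7 in overexpressing arrays, 927.5, 925.3 and 920 in knockdown arrays and 1080.5, 1173.2 and 1005.7 in wildtype arrays. It was lower in every knockdown array than in any other. Its log2 fold change was 0.10 ± 0.09 in overexpressing over wildtype cells (adjusted p = 0.569). The third, 1437712_x_at, whose type can cross-match other transcripts, spread from 447.7 to 1463.4 in knockdown arrays alone and had a 95% interval of -1.15 to 0.30 in overexpressing over wildtype cells. A direction for Exosc4 is therefore not given by these probe sets together. Averaged over the 3, its log2 fold change was -0.21 (adjusted p = 0.442).

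Dis3, the ribonuclease with both exonuclease and endonuclease sites, read 989.6, 1246.9 and 1039.5 in overexpressing arrays, 849.7, 902.1 and 824.4 in knockdown arrays and 663.3, 773.5 and 921.6 in wildtype arrays. The overexpressing arrays were above all others, and knockdown and wildtype arrays overlapped. Dis3 rose by 0.47 ± 0.13 in overexpressing over wildtype cells, narrowly past the threshold (adjusted p = 0.0467). The call was lost when any 1 array other than wildtype array C was left out: adjusted p was 0.0669, 0.16 and 0.0852 without overexpressing arrays A, B and C, 0.0662, 0.0589 and 0.0642 without knockdown arrays A, B and C, and 0.141 and 0.13 without wildtype arrays A and B. The fold change stayed between 0.36 and 0.59 in these fits and the one without wildtype array C.

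Exosc10, the nucleolar ribonuclease known in yeast as Rrp6, did not pass on any of its 4 probe sets. The brightest, 1454021_a_at, read 1165.2, 1248.2 and 1339.1 in overexpressing arrays, 1045.2, 1178 and 1093.1 in knockdown arrays and 1078, 1057.9 and 1151.8 in wildtype arrays. The overexpressing arrays were above wildtype without overlap, by 0.19 ± 0.09 (adjusted p = 0.252, 95% interval -0.013 to 0.39). The other 3 had log2 fold changes of 0.31, 0.11 and 0.14, with adjusted p from 0.205 to 0.816.

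**Figure D2:**
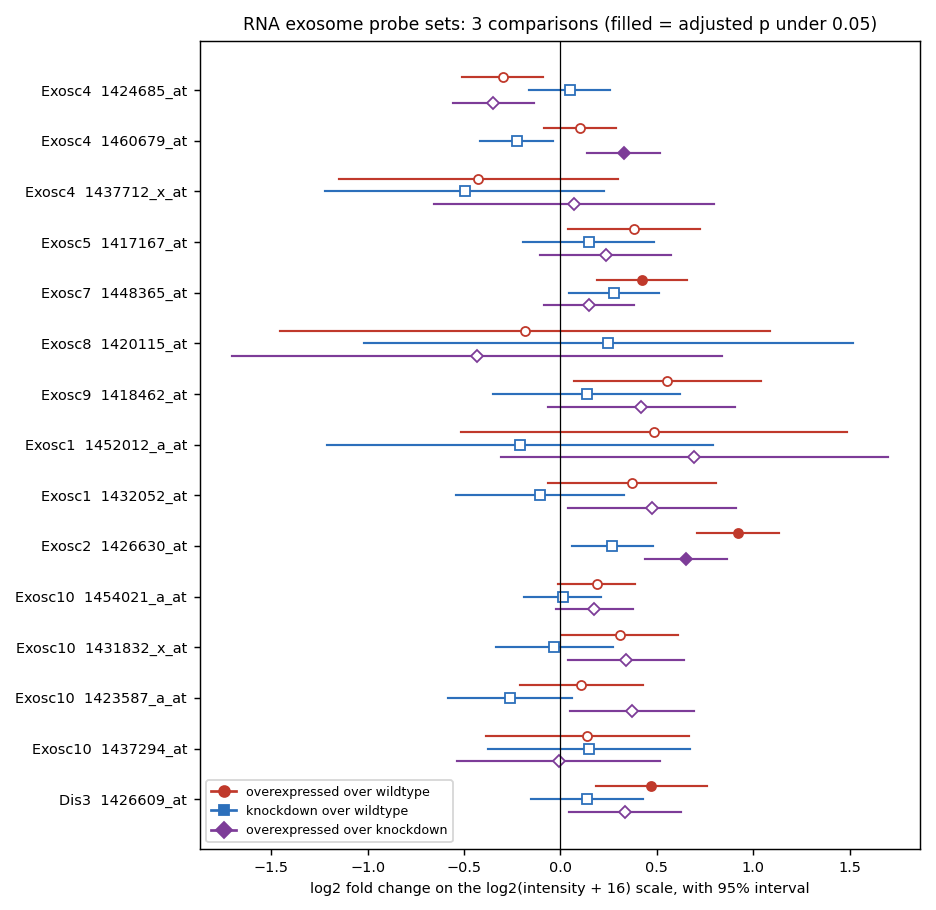
Log2 fold change (horizontal axis) of each exosome probe set with its 95% interval, for overexpressing over wildtype, knockdown over wildtype and overexpressing over knockdown cells, from top to bottom within a row. Filled symbols have an adjusted p under 0.05. Exosc2 is filled in both comparisons of overexpressing cells, at 0.92 and 0.65, and no symbol is filled for knockdown over wildtype.

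Genes called in the overexpressing cells lie on different chromosomes. The median log2 fold change of all named probe sets on chromosome 2, which carries Exosc2, was 0.085 in overexpressing over wildtype cells (1625 probe sets). It was 0.0014 on chromosome 9, which carries Exosc7 (1084 probe sets), and 0.022 on chromosome 14, which carries Dis3 (714 probe sets). Exosc4 lies on chromosome 15, where the median was -0.11 (800 probe sets).

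The promoters of the 3 called genes are shown because these transcripts rose in the same comparison. Each stretch is the 250 bases before the RefSeq start of the gene on GRCm38.p6, read 5′ to 3′ on the gene's strand: chr2:31670465-31670714 on the plus strand for Exosc2, chr9:123112981-123113230 on the plus strand for Exosc7 and chr14:99099771-99100020 on the minus strand for Dis3. Capitals mark matches on either strand to short motifs named after these lines.
Exosc2: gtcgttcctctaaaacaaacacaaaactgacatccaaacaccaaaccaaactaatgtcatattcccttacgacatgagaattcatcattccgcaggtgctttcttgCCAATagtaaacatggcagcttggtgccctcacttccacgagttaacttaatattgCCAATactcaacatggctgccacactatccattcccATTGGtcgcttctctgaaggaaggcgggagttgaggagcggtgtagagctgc
Exosc7: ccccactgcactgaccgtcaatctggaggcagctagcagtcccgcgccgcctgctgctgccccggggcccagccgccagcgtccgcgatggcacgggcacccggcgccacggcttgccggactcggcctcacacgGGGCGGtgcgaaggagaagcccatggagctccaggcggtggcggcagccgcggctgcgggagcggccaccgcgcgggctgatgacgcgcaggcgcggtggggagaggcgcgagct
Dis3: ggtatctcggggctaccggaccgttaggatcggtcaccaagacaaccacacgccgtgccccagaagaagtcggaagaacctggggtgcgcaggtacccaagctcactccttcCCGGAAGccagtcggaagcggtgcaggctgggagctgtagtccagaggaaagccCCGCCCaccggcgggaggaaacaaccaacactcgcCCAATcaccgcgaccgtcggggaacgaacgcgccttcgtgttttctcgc

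The 3 stretches differed in base composition, with 45.6% G and C for Exosc2, 76% for Exosc7 and 63.2% for Dis3. The CCAAT box, CCAAT, occurred 3 times before Exosc2, at 144, 88 and 52 bases before the start, 1 time before Dis3 and 0 times before Exosc7, and in 33.8% of 32851 RefSeq promoter stretches of the same length. The GC box, GGGCGG, occurred 1 time each before Exosc7 and Dis3 and 0 times before Exosc2, and in 32.7% of all stretches. The ETS core CCGGAAG occurred 1 time before Dis3 and in 6.91% of all stretches. The E-box CACGTG, the NRF1 core CATGCGC, the YY1 core GATGGCG and the E2F cores TTTGGCG and TTTCCCG had 0 matches in these 3 stretches, and are held by 6.02%, 3.24%, 2.18%, 1.26% and 2.75% of all. No motif was held by all 3, and no matches overlapped. Of the 7 exosome genes with a promoter in the RefSeq table, 1 held the E-box, Exosc5, at 44 bases before its start, and 2 held the NRF1 core, Exosc5 and Exosc10.

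In knockdown over wildtype cells, 0 of the 15 exosome probe sets passed in limma, beside 0.0133% of all probe sets, or 3 of 22626. At an unadjusted p under 0.05 there were 3, beside 10.9% of all probe sets. Exosc2 and Exosc7 were the higher ones (2 of 15, beside 5.94% of all), and Exosc4 on 1460679_at the lower one (1 of 15, beside 4.94% of all). Exosc2 differed by 0.27 ± 0.10 (adjusted p = 0.353), with 1076.9 to 1211.4 in knockdown arrays against 854.4 to 1036.1 in wildtype arrays. Exosc7 differed by 0.28 ± 0.11 (adjusted p = 0.378), with 1810.5 to 2065.7 in knockdown and 1412 to 1690.9 in wildtype arrays. The Exosc4 probe set differed by -0.23 ± 0.09 (adjusted p = 0.37), with 920 to 927.5 in knockdown and 1005.7 to 1173.2 in wildtype arrays. These 3 were also the ones whose groups did not overlap, a share of 20% beside 15.6% of all probe sets.

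The other ring subunits followed here and the cap subunit Exosc1 scattered around wildtype in the knockdown cells. Exosc9 read 278.3, 144.1 and 218.8 in knockdown arrays, a log2 fold change of 0.14 ± 0.22 (adjusted p = 0.874), and Exosc5 read 727.1, 731.4 and 751.7, at 0.15 ± 0.15 (adjusted p = 0.778). Both sets of values overlapped wildtype. The dim ring subunit Exosc8 was at 0.25 ± 0.57 (adjusted p = 0.914), with overlap. Exosc1 on 1432052_at read 197.4, 141.5 and 177.4 in knockdown arrays, at -0.11 ± 0.20 (adjusted p = 0.893), also with overlap. On 1452012_a_at it was at -0.21 ± 0.45 (adjusted p = 0.906), again with overlap.

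The ribonucleases did not pass in the knockdown cells either. Dis3 had a log2 fold change of 0.14 (adjusted p = 0.75, 95% interval -0.15 to 0.43) and Exosc10, on its brightest probe set, 0.012 (adjusted p = 0.973, 95% interval -0.19 to 0.21). The median of the 15 was 0.048, against 0.030 over all probe sets, with 9 above 0, or 60%, and 6 below. Over all probe sets 54.5% were above 0. The 3 wildtype arrays serve in both comparisons, so a gene's values in them are not independent.

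Between overexpressing and knockdown cells, 2 exosome probe sets rose and 0 fell, or 13.3%, beside 3.43% of all probe sets called higher, 4.14% called lower and 7.57% called in either direction. Exosc2 was higher by 0.65 ± 0.10 (adjusted p = 0.00351), or 1.57-fold, and kept its call in all 19 alternative fits, at 0.61 to 0.71. Exosc4 on 1460679_at was higher by 0.33 ± 0.09 (adjusted p = 0.0423), whereas its brightest probe set had the opposite sign. That Exosc4 call was lost in 7 of 9 fits without 1 array, with adjusted p of 0.126, 0.0974 and 0.0971 without overexpressing arrays A, B and C, 0.103, 0.0956 and 0.0964 without knockdown arrays A, B and C and 0.0546 without wildtype array B. With the letter as a replicate block it had adjusted p = 0.0609.

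Dis3 was 0.34 ± 0.13 higher in overexpressing than in knockdown cells without passing (adjusted p = 0.157), although the groups did not overlap (989.6 to 1246.9 against 824.4 to 902.1). Exosc7 differed by 0.15 ± 0.11 (adjusted p = 0.457, 95% interval -0.085 to 0.38), and its groups overlapped. Of the 15 probe sets, 8 had groups that did not overlap, 53.3% beside 28.1% of all. For Exosc10 these were 1431832_x_at, at 0.34 ± 0.14 (adjusted p = 0.168), and 1423587_a_at, at 0.37 ± 0.14 (adjusted p = 0.157).

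**Figure D3:**
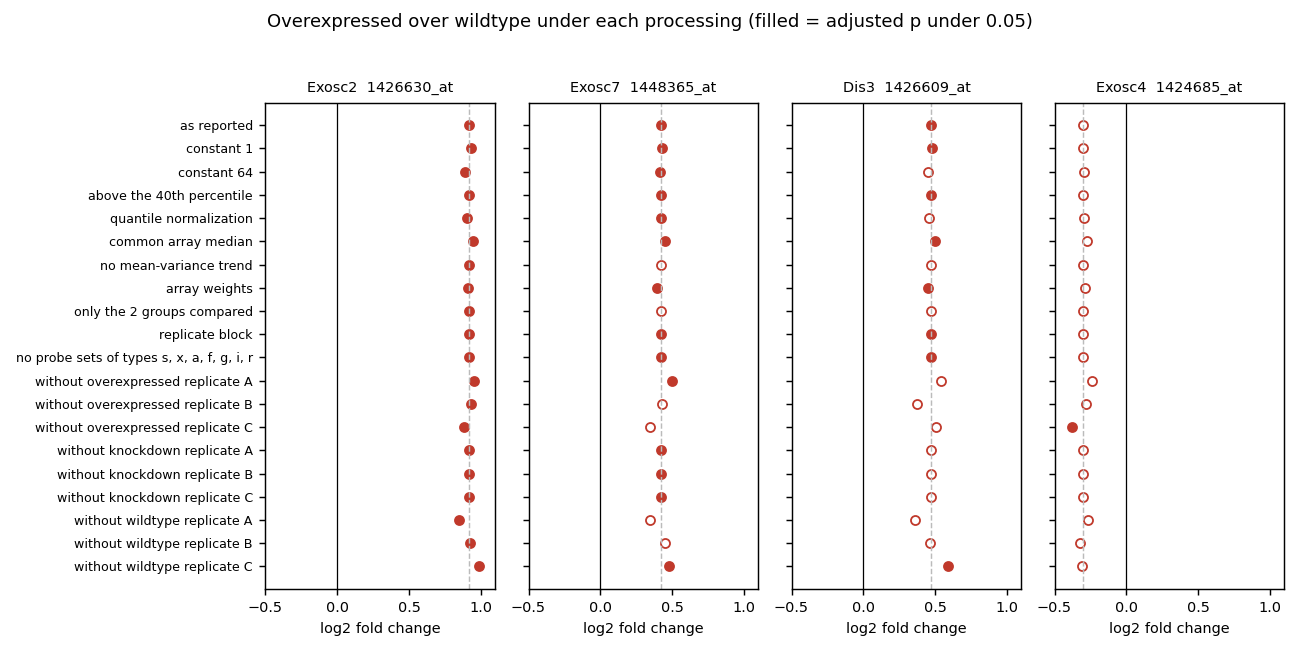
Log2 fold change in overexpressing over wildtype cells (horizontal axes) of Exosc2, Exosc7, Dis3 and the brightest Exosc4 probe set under each processing (rows), with filled points for an adjusted p under 0.05. The dashed line is the value as reported. Exosc2 is filled in every row, Exosc7 in the reported one and 13 of 19 others, Dis3 in the reported one and 7 of 19 others, and Exosc4 in 1.

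Across the 9 arrays the subunits fell into unlike profiles, given here as a description over points that share 3 groups. With Exosc2, Dis3 correlated at r = 0.88 (Spearman 0.867), Exosc10 at 0.845 (0.833) and Exosc7 at 0.824 (0.883), each on its brightest probe set. Exosc4 correlated at r = -0.753 (Spearman -0.567) with Exosc2 and -0.719 (-0.7) with Dis3. Exosc8 correlated at -0.005 (Spearman 0.05) with Exosc2.

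The mean of the 9 genes' standardized values was 0.136, 0.568 and 1.01 in overexpressing arrays A, B and C, -0.207, -0.174 and 0.155 in knockdown arrays and -0.687, -0.523 and -0.277 in wildtype arrays. Wildtype arrays were below all others, and knockdown array C was above overexpressing array A. Of 10428 other named probe sets brighter than the median, the 5 genes whose profile over the 9 arrays was most like this mean were Slc35a1, Phf5a, Pkmyt1, Nedd8 and Ctnnbip1, at r = 0.955 to 0.96, and 70 probe sets had r above 0.9. They were chosen for that likeness, so their fold changes in overexpressing over wildtype cells are a description: 0.37 for Slc35a1, a transporter of CMP-sialic acid, 0.61 for Phf5a, a component of the splicing factor SF3b, 0.68 for Pkmyt1, a kinase that holds back entry into mitosis, 0.54 for Nedd8, a ubiquitin-like modifier, and 0.53 for Ctnnbip1, an inhibitor of beta-catenin. Pkmyt1 read 699.5, 877.7 and 934.3 in overexpressing arrays, 645.9, 664.7 and 770.1 in knockdown arrays and 453.3, 496.2 and 597.1 in wildtype arrays.

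Genes that work with the exosome or beside it were taken from 7 lists of RNA decay and processing factors, with 79 of 106 entries measured and the brightest probe set for each gene. In overexpressing over wildtype cells, 11 rose and 2 fell, beside 4.52% of all probe sets called higher and 5.07% lower, with a median of 0.19. The shares over all probe sets include dim ones, whereas each listed gene is read on its brightest. The lists were also chosen with earlier results of these data known, so the difference in shares is a description. The 13 calls became 5, 6 and 7 without overexpressing arrays A, B and C, and 6 and 5 without wildtype arrays A and B. They became 6 without the mean-variance trend. Without the multi-transcript probe set types they became 8. Some of the 13 had been called on probe sets of those types, which that fit did not test. That lower count is thus not a measure of how stable the calls were.

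Among 12 nuclear cofactors, 3 rose and 0 fell, with a median of 0.28. Mtrex, the RNA helicase that feeds substrates to the nuclear exosome, read 1750 ± 122 (SD, n = 3) in overexpressing and 1248 ± 72.0 in wildtype arrays, a rise of 0.48 ± 0.11 (adjusted p = 0.0216). Pabpn1, the nuclear poly(A) binding protein, rose by 0.72 ± 0.14 (adjusted p = 0.00833), and Srrt, which ties the cap-binding complex to RNA turnover, by 0.78 ± 0.21 (adjusted p = 0.0371). Of 8 cytoplasmic cofactors, 0 passed, with Pelo, a ribosome rescue factor, at 0.48 ± 0.16 (adjusted p = 0.0836).

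Of 13 other exonucleases, 0 rose and 1 fell. Isg20, an interferon-induced exonuclease, read 244.8 ± 18.6 in overexpressing and 555 ± 50.7 in wildtype arrays, a log2 fold change of -1.13 ± 0.13 (adjusted p = 0.000786). Of 14 deadenylation genes, Cnot9 of the CCR4-NOT complex rose by 0.48 ± 0.12 (adjusted p = 0.0331) and the poly(A) ribonuclease gene Parn changed by -0.50 ± 0.12 (adjusted p = 0.0294). Of 10 genes of decapping and Lsm rings, 2 rose: Lsm2, at 1.11 ± 0.15 (adjusted p = 0.00176), and Lsm3, at 1.17 ± 0.22 (adjusted p = 0.00829). Their proteins sit in both the cytoplasmic decapping ring and the nuclear ring on U6 RNA. Of 7 nonsense-mediated decay genes 0 passed, with Rbm8a at 0.26 ± 0.09 (adjusted p = 0.0803).

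Of 15 genes of 5.8S and spacer processing, 5 rose and 0 fell, with a median of 0.30. Mak16 read 1975 ± 72.5 in overexpressing and 1333 ± 89.1 in wildtype arrays, a rise of 0.56 ± 0.09 (adjusted p = 0.00367). Rrp8 rose by 0.78 ± 0.19 (adjusted p = 0.0243), Utp20 by 0.61 ± 0.15 (adjusted p = 0.0295), Ftsj3 by 0.64 ± 0.16 (adjusted p = 0.0339), and Wdr12, a partner of Pes1 and Bop1, by 0.40 ± 0.10 (adjusted p = 0.035). Utp20 is also part of the machinery that makes the small ribosomal subunit.

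In knockdown over wildtype cells 0 of the 79 genes passed in limma, and 8 had an unadjusted p under 0.05, 3 higher and 5 lower, beside 10.9% of all probe sets. The smallest p in each list belonged to Nrde2 at -1.63 ± 0.40 (adjusted p = 0.192), Hbs1l at -0.34 ± 0.12, Xrn2 at -0.35 ± 0.11, Btg1 at -0.24 ± 0.11, Lsm3 at 0.72 ± 0.22, Rbm8a at 0.24 ± 0.09 and Pes1 at -0.37 ± 0.10, the last 6 with adjusted p from 0.24 to 0.463. The 1 other Pes1 probe set had the opposite sign. The median over the 79 was -0.019.

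In overexpressing over knockdown cells, 10 of the 79 rose and 1 fell, beside 3.43% of all probe sets called higher and 4.14% lower. Mtrex was higher by 0.71 ± 0.11 (adjusted p = 0.00489) and Pabpn1 by 0.62 ± 0.14 (adjusted p = 0.0221). Lsm2 was higher by 0.98 ± 0.15 (adjusted p = 0.00444), and Upf2 of nonsense-mediated decay by 0.48 ± 0.12 (adjusted p = 0.0386). In 5.8S and spacer processing 6 of 15 rose, among them Ftsj3 at 0.91 ± 0.16, Mak16 at 0.46 ± 0.09, Utp20 at 0.71 ± 0.15 and Ddx27 at 0.68 ± 0.15 (adjusted p = 0.0097 to 0.0198). Isg20 was lower, at -1.41 ± 0.13 (adjusted p = 0.000303). Pelo at 0.50 ± 0.16 (adjusted p = 0.0839) and Cnot4 at 0.56 ± 0.17 (adjusted p = 0.0814) did not pass. Of the 4 other Cnot4 probe sets, 2 had the opposite sign. The 11 calls became 4, 5 and 6 without overexpressing arrays A, B and C, 6 and 7 without knockdown arrays A and B, and 4 without the trend. At most they rose to 16, both with 1 array left out and in the other alternatives.

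**Figure D4:**
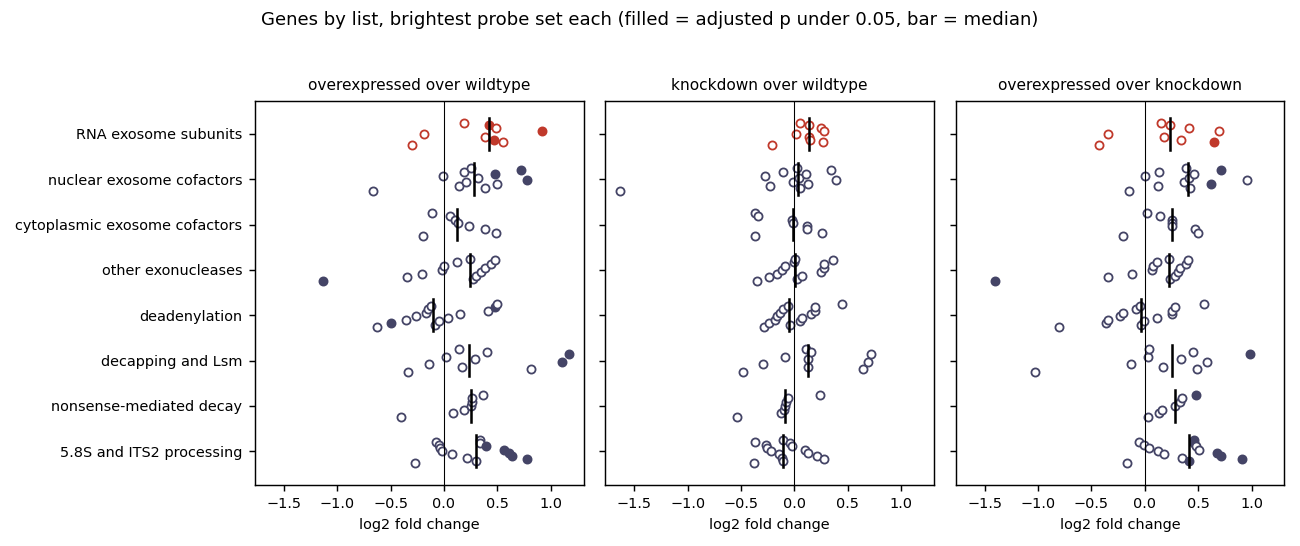
Log2 fold change (horizontal axes) of each gene's brightest probe set in the 9 exosome genes and 7 lists of RNA decay and processing factors, for each of the 3 comparisons. Filled points have an adjusted p under 0.05, and vertical bars are list medians. In overexpressing over wildtype cells the lists hold 11 filled points to the right of 0 and 2 to the left, and in knockdown over wildtype cells no point is filled.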

How the data were processed

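Per the labels, total RNA came from N1E-115 cells. The authors deposited linear intensity values, 1 per probe set and array. Their software and scaling method: not given in the sources used here. Trimmed of 2% of values at each end, every array averaged 500.18 to 500.2, so the deposited intensities were already scaled. The number of arrays limits the precision.

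Array medians differed by a ratio of 1.133, under the limit of 1.2 set for rescaling, so values were used as deposited. Values were taken as log2(intensity + 16), a scale on which changes of dim probe sets are understated, and fitted with limma 3.58.1 in R 4.3.3 (lmFit, eBayes with a mean-variance trend) to all 9 arrays, with a mean per group. Benjamini-Hochberg adjustment ran over 22626 probe sets per comparison, without 64 controls, with calls made at an adjusted p under 0.05. Fold changes are ± SE and intensities ± SD. The fit was also run on simulated data with independent errors, where only probe sets brighter than the median were changed. That run does not speak to dim probe sets or to whether the scatter among arrays is technical.

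Probe sets were named from the platform annotation where it gave exactly 1 symbol (20380). Of these, 20351 matched a RefSeq gene of GRCm38.p6 by identifier, used for chromosomes. Promoter sequences are RefSeq's. All exosome probe sets and Tcof1 are named, and per list and comparison up to 4 called genes with the smallest p, or else the 1 with the smallest p. For Wdr12, the fifth in its list, and for the motifs, the choice was made after the values or sequences were seen. The members and lists were chosen with earlier results of these data known.

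The main fit did not pair arrays by letter, since the meaning of the letters is not given. Deviations from group means correlated at -0.012 to 0.102 for the same letter and -0.12 to 0.099 for different letters. Of the same-letter values, only that of knockdown and wildtype arrays A was below 0. These low correlations do not settle whether the letters pair the arrays, so the letter was also fitted as a block. Alternatives were added constants of 1 and 64, probe sets above the 40th percentile, quantile normalization, a common array median, no trend, array weights, the groups compared alone, the letter as a block, no probe sets of types s, x, a, f, g, i and r, probe sets averaged per gene, and each array left out.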

Additional observations from a re-analysis of the deposited data

How the results depend on the processing

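Of the exosome calls, both of Exosc2 held under every alternative run. The 3 exosome calls in overexpressing over wildtype cells became 1 without the mean-variance trend and 1 with those groups fitted alone. They became 2 with an added constant of 64 or with quantile normalization, and ranged from 1 to 3 when 1 array was left out. Without overexpressing array C or wildtype array A, that count included a probe set not called otherwise. These were Exosc4 1424685_at, which was lower, and Exosc5, which was higher. The 2 calls in overexpressing over knockdown cells became 1 without the trend, 1 with the letter as a replicate block, 3 with array weights and 3 above the 40th percentile, and ranged from 1 to 3 when 1 array was left out. The call added with array weights, above the 40th percentile and without wildtype array A was Exosc4 1424685_at, which was lower. With quantile normalization the count stayed at 2, but Exosc4 1460679_at, which was higher, was lost (adjusted p = 0.0543) and Exosc4 1424685_at, which was lower, passed (adjusted p = 0.0476). For knockdown over wildtype the count was 0 in every fit. The replicate block left the 3 calls in overexpressing over wildtype cells at 3. The cause of these shifts was not tested.

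Over all probe sets, 2169 calls in overexpressing over wildtype cells became 1339 without the trend, 1406 without the multi-transcript probe set types, where fewer are tested, and 1090 to 2404 with 1 array left out. The 1713 in overexpressing over knockdown cells became 834, 1101 and 704 to 2048 in the same order. Across the alternatives that kept all arrays, the highest counts were 2827 over wildtype and 2205 over knockdown. The 3 in knockdown over wildtype cells became 46 above the 40th percentile, 24 with array weights, 1 with quantile normalization, without the trend or with those groups alone, 0 with the block or without those types, and 0 to 103 with 1 array left out.

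Values that were not called changed sign in places. For knockdown over wildtype, Exosc10 1454021_a_at was -0.023 with a common array median, -0.034 averaged over its probe sets and -0.034 to 0.051 with 1 array left out. Exosc8 was -0.15 and Tcof1 1424643_at -0.0012 with array weights, and Exosc4 was -0.22 averaged over its probe sets. For overexpressing over knockdown, Exosc10 1437294_at was 0.058 with quantile normalization and 0.050 with a common array median, and Exosc4 was 0.016 averaged over its probe sets.

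With 1 array left out, values for knockdown over wildtype ran from -0.25 to 0.66 for Exosc8, -0.088 to 0.13 for Tcof1 1424643_at, -0.066 to 0.37 for Exosc9, -0.66 to 0.070 and -0.27 to 0.016 for Exosc1 1452012_a_at and 1432052_at, -0.048 to 0.35 and -0.081 to 0.043 for Exosc10 1437294_at and 1431832_x_at, -0.016 to 0.095 for Exosc4 1424685_at and -0.031 to 0.33 for Exosc5. For overexpressing over wildtype they ran from -0.68 to 0.42 for Exosc8 and -0.022 to 0.22 for Exosc10 1423587_a_at, and for overexpressing over knockdown from -0.79 to 0.17 for Exosc8, -0.34 to 0.50 for Exosc4 1437712_x_at and -0.21 to 0.19 for Exosc10 1437294_at. Dim probe sets such as that of Exosc8 limit what these arrays can show.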
